A study of Mus musculus with 10 samples.

Results

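The laminin chain genes are the 9 mouse genes Lama1, Lama2, Lama3, Lama4, Lama5, Lamb1, Lamb2, Lamb3 and Lamc1, taken as every array feature that carries one of these symbols. They were read from 11 of 62976 features, with 2 features each for Lama2 and Lama3 and 1 for each of the others, and all 9 were among the 16650 genes tested. Total RNA of cultured cells was hybridised to 10 one-colour Agilent arrays in 3 groups. TTF-derived ieSCs (4 arrays) are embryonic Sertoli-like cells induced from female tail tip fibroblasts, and MEF-derived ieSCs (4 arrays) were induced from mouse embryonic fibroblasts (MEFs). Both carried transgenes for the Sertoli factors Dmrt1, Gata4, Nr5a1, Sox9 and Wt1. The ieSCs had grown 2 weeks without doxycycline. The third group, MEFs without these transgenes (2 arrays), had been cultured for 2 weeks. All 3 groups share the R26-M2rtTA background, in which the doxycycline-dependent transactivator is expressed from the Rosa26 locus.

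Arrays came in pairs (a and b) under 5 names, with names 1 and 2 in either kind of ieSC and a single name for the MEFs. Nothing in the labels says whether the arrays of a pair came from separate cultures, so the p-values rest on a spread between arrays that may be in part technical. The spread between MEF preparations was not measured. Unconverted tail tip fibroblasts were not analysed here, so for TTF-derived ieSCs against MEFs the conversion and the starting cell cannot be told apart. Arrays of one name correlated at 0.9896 to 0.9966 over all features, and ieSC with MEF arrays at 0.926 to 0.9408. As a check of the labels, 7 of the 9 fetal Sertoli markers tested were higher in ieSCs than in MEFs and 2, Sox9 and Cldn11, were lower. Amh, which defines fetal Sertoli cells, stayed below the filter, at 4.10 in TTF-derived ieSCs, 4.74 in MEF-derived ieSCs and 4.24 in MEFs. Of the 9 fibroblast markers, 8 were lower in ieSCs. Over all genes tested, 25.9% were higher and 23.6% lower in this comparison of both kinds of ieSC with MEFs.

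Laminins are large secreted glycoproteins, each built from 1 α, 1 β and 1 γ chain that join inside the cell before secretion. They polymerise into the sheet on which a basement membrane forms, and the end of the α chain binds integrins and dystroglycan on the cell surface. In the testis, Sertoli cells and the peritubular cells around them lay down the basement membrane of the tubule. Which trimers a cell can secrete depends on the chains it makes, so the chain genes were read one by one and then by trimer. Levels are log2 intensities, and a level can be set against the same gene on other arrays but not against another gene. The dim end of the arrays was taken as the 40th percentile, which lay between 4.99 and 5.02.

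Over the mean of both kinds of ieSC, the 3 genes that differed most from MEFs were Lama2, Lamb1 and Lama5. Within a single origin the third differs: Lama4 in TTF-derived and Lama1 in MEF-derived ieSCs stood further from MEFs than Lama5. Their promoter windows, from 250 bases before to 50 bases after an annotated start, are shown with matches to any of 6 short motifs in capitals, 5′ to 3′ on the gene's strand (RefSeq, GRCm38.p6). On this build Lamb1 spans chr12:31265146-31329644, Lama2 chr10:26981285-27617191 and Lama5 chr2:180176373-180225904. Lama1 lies at chr17:67697127-67822645, Lama4 at chr10:38965515-39110188, Lamb2 at chr9:108479847-108490530, and Lamb3 and Lamc1 at chr1:193294353-193343878 and chr1:153218922-153332786. Of the 9 genes, 5 (Lama2, Lama5, Lamb1, Lamb2 and Lamb3) had such a window. The Lama2 window lies almost wholly inside the gene span given, and both Lamb3 windows lie wholly inside theirs. The starts used for these genes are therefore not the outermost ones.
Lamb1, chr12:31265043-31265342, plus strand: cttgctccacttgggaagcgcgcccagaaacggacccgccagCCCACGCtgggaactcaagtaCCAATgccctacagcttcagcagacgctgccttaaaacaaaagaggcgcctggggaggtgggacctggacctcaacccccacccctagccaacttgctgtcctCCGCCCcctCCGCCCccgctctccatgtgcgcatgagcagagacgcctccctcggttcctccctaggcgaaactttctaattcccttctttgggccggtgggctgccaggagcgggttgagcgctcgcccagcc
Lama2, chr10:27616893-27617192, minus strand: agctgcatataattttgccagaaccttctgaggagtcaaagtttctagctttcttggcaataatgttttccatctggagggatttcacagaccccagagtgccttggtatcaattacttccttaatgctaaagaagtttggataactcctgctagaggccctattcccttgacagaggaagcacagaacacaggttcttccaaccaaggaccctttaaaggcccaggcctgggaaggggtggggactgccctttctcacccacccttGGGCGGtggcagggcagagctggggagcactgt
Lama5, chr2:180225810-180226109, minus strand: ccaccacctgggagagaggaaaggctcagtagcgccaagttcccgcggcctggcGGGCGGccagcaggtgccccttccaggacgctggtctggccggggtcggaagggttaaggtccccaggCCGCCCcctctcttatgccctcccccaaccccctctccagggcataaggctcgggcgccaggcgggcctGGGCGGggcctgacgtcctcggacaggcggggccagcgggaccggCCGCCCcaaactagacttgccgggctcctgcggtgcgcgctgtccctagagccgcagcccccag
The motifs were the GC box GGGCGG, the start-site box TATAAA, the upstream box CCAAT, the WT1-type GCGTGGG, the GATA-type AGATAA and the NR5A1-type CAAGGTCA, each searched on both strands. The starts of the matches found lay at least 9 bases apart, so none overlapped. The GC box, which 35.7% of the 32851 mouse windows hold, stood 4 times in the Lama5 window, 2 times in the Lamb1 window and once in the Lama2 window. The Lamb1 window also held 1 CCAAT match (37.4% of all windows) and 1 GCGTGGG match (5.04%). TATAAA (13.6% of windows), AGATAA (11.2%) and CAAGGTCA (1.56%) had no match in these windows. The Lama5 and Lamb1 windows were 72.7% and 63.7% G and C with 24 and 18 CG pairs, and the Lama2 window was 50.3% with 1, against medians of 52.7% and 7 over all windows. The Lamb2 window and both windows of Lamb3 held none of the 6 motifs. These matches describe the letters of the windows only.

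The ieSCs differed from MEFs in which laminin chain genes were high. Lamb1, the β chain of most embryonic laminins, and the α chain genes Lama2 and Lama4 fell in both kinds of ieSC relative to MEFs, while Lama5, the α chain of many epithelial basement membranes, rose in both. Lamc1, the γ chain that most laminins share, did not pass. Lama1 and Lama3 differed between the kinds of ieSC: both rose in MEF-derived ieSCs, and in TTF-derived ieSCs Lama1 fell and Lama3 did not pass. Over the mean of both kinds of ieSC, 4 of 9 genes were higher and 3 lower than in MEFs by limma at an adjusted p under 0.05. Of all genes tested, 49.5% were called in this comparison, 25.9% higher and 23.6% lower. The median log2 difference of the 9 genes was 0.10, beside 0.085 over all genes, and their median absolute difference was 0.80, beside 0.474. With the arrays of each name averaged, 4 of the 9 passed and 33.0% of all genes were called. In bulk RNA of this kind, fewer cells of a type and less RNA per cell cannot be told apart.

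**Figure D1:**
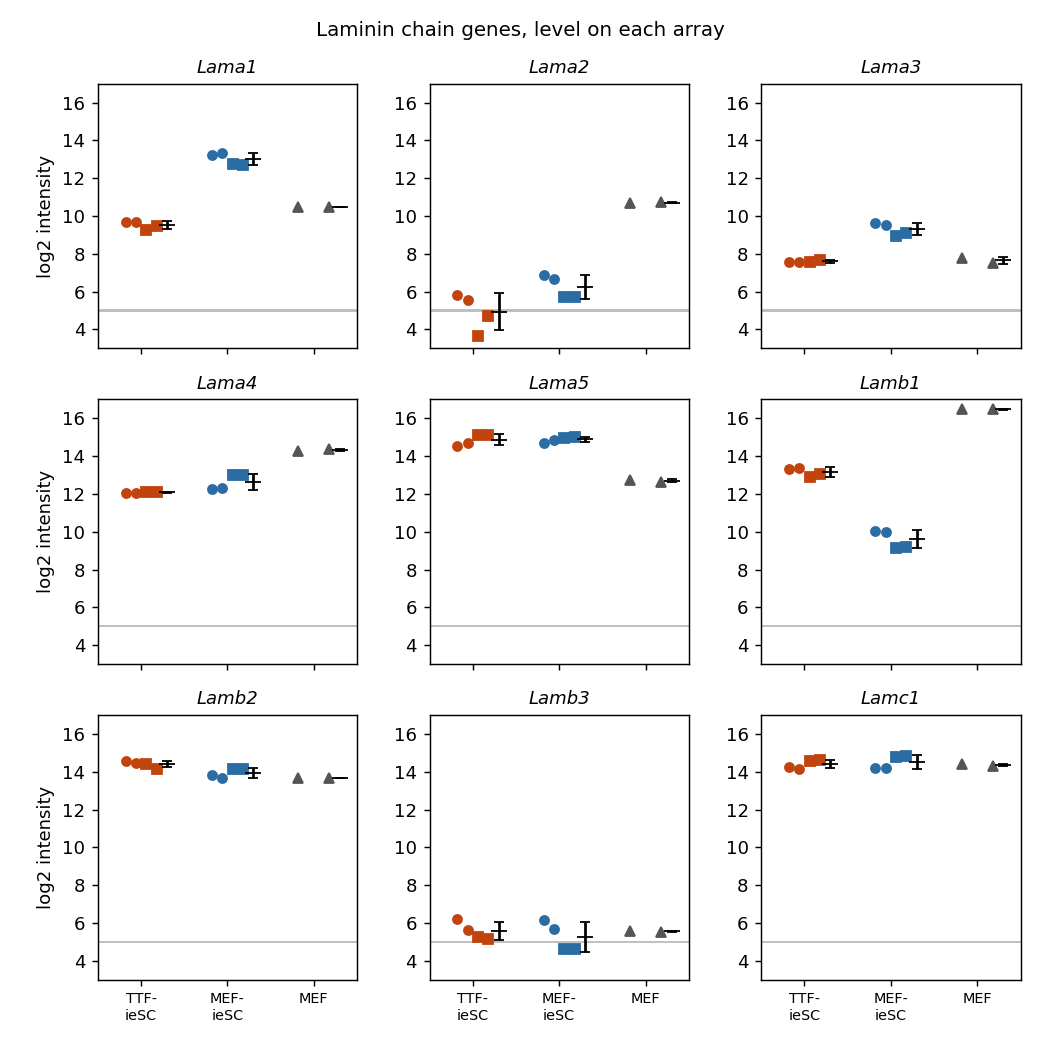
Log2 intensity of the 9 laminin chain genes on each array (y axis) in TTF-derived ieSCs, MEF-derived ieSCs and MEFs (x axis). Circles are arrays of name 1, squares of name 2 and triangles MEF arrays. Black marks give the mean and SD of a group, and the grey line is the 40th percentile of the arrays. Lamb1 lies between 12.87 and 13.39 in TTF-derived and between 9.16 and 10.04 in MEF-derived ieSCs, below both MEF arrays at 16.47 and 16.49.

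Among the α chains, Lama5 stood at 14.54, 14.70, 15.10 and 15.10 on TTF-derived arrays 1a, 1b, 2a and 2b, at 14.69, 14.85, 14.96 and 15.01 on the MEF-derived arrays in the same order, and at 12.76 and 12.65 in MEFs. All 8 ieSC arrays lay above both MEF arrays, and the ieSC groups overlapped each other. The log2 difference was 2.15 ± 0.20 (SE) for TTF-derived ieSCs (fold change 4.45, limma adjusted p = 2.08e-05) and 2.17 ± 0.20 for MEF-derived ieSCs (fold change 4.51, adjusted p = 1.65e-05). Between the ieSC groups Lama5 differed by -0.02, with a 95% interval of -0.39 to 0.35.

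Lama1, the α chain of the first laminins of the embryo, stood at 9.67, 9.68, 9.24 and 9.46 on the TTF-derived arrays, at 13.21, 13.36, 12.73 and 12.72 on the MEF-derived arrays and at 10.45 and 10.47 in MEFs. The TTF-derived arrays lay below both MEF arrays and the MEF-derived arrays above them. Against MEFs the difference was -0.95 ± 0.23 in TTF-derived ieSCs (adjusted p = 0.00812) and 2.54 ± 0.23 in MEF-derived ieSCs (fold change 5.81, adjusted p = 1.52e-05). The fall in TTF-derived ieSCs did not pass with the arrays of each name averaged (limma adjusted p = 0.0986; range over the 23 alternatives 0.00191 to 0.0986). The mean over both kinds of ieSC, 0.80 above MEFs, thus averages values of opposite sign.

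Lama2, the α chain of muscle and nerve basement membranes, stood at 5.81, 5.55, 3.65 and 4.73 on the TTF-derived arrays, at 6.85, 6.69, 5.69 and 5.74 on the MEF-derived arrays and at 10.68 and 10.73 in MEFs. Every ieSC array lay at least 3 units below the MEFs, and 2 of the 4 TTF-derived arrays were under the 40th percentile. The log2 difference was -5.77 ± 0.70 in TTF-derived (adjusted p = 0.000118) and -4.46 ± 0.70 in MEF-derived ieSCs (adjusted p = 0.000537), and near the dim end it is no ratio of transcript amounts. Its other feature was also lower, with means of 3.55 in TTF-derived ieSCs, 5.30 in MEF-derived ieSCs and 9.66 in MEFs, but 0 of 4 TTF-derived and 2 of 4 MEF-derived arrays exceeded the 40th percentile there.

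Lama4, an α chain of vessels and mesenchyme, stood at 12.07, 12.06, 12.09 and 12.09 on the TTF-derived arrays, at 12.26, 12.29, 12.99 and 13.02 on the MEF-derived arrays and at 14.26 and 14.35 in MEFs. No ieSC array reached the MEF arrays, and the signal was bright in all groups. The fall was by 2.23 ± 0.23 in TTF-derived (adjusted p = 4.12e-05) and by 1.67 ± 0.23 on the log2 scale in MEF-derived ieSCs (adjusted p = 0.000241).

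Lama3, an α chain of the skin and other epithelia, stood at 7.56, 7.59, 7.55 and 7.69 on the TTF-derived arrays, at 9.65, 9.53, 8.97 and 9.09 on the MEF-derived arrays and at 7.77 and 7.53 in MEFs. The TTF-derived arrays overlapped the MEFs, and the MEF-derived arrays lay above all others. The difference from MEFs was 1.66 ± 0.23 in MEF-derived ieSCs (fold change 3.16, adjusted p = 0.00022). In TTF-derived ieSCs it was -0.05, with a 95% interval of -0.56 to 0.46. The second Lama3 feature averaged 4.86 in TTF-derived ieSCs, 7.13 in MEF-derived ieSCs and 4.91 in MEFs. It lay above the 40th percentile on 2 of 4 TTF-derived, 4 of 4 MEF-derived and 0 of 2 MEF arrays, so the sizes of its differences are not given.

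Among the β chains, Lamb1 stood at 13.33, 13.38, 12.87 and 13.04 on the TTF-derived arrays, at 10.04, 10.002, 9.16 and 9.19 on the MEF-derived arrays and at 16.49 and 16.47 in MEFs. The groups did not overlap, and the MEF-derived arrays were the lowest. The log2 difference was -3.32 ± 0.29 in TTF-derived ieSCs (adjusted p = 1.32e-05), and -6.88 ± 0.29 in MEF-derived ieSCs, a level 118-fold lower (adjusted p = 1.1e-07). Lamb1 stayed past the 60th percentile on all 8 ieSC arrays.

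Lamb2, the β chain of the kidney filter and the neuromuscular junction, stood at 14.55, 14.45, 14.43 and 14.16 on the TTF-derived arrays, at 13.82, 13.65, 14.15 and 14.16 on the MEF-derived arrays and at 13.65 on both MEF arrays. Every ieSC array was above both MEF arrays, MEF-derived array 1b by less than 0.01. The rise was 0.74 ± 0.21 in TTF-derived ieSCs (fold change 1.67, adjusted p = 0.0163). MEF-derived ieSCs did not pass, at 0.29 ± 0.21 (adjusted p = 0.277). The rise over both kinds of ieSC, 0.52 ± 0.19, was close to the threshold (adjusted p = 0.0475) and did not pass in 12 of 23 alternatives (limma adjusted p from 0.00879 to 0.149). The TTF-derived rise did not pass with averaged names (limma adjusted p = 0.0966; range over the 23 alternatives 0.00323 to 0.0966).

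Lamb3, the β chain of the skin laminin that anchors keratinocytes, stood at 6.20, 5.63, 5.28 and 5.15 on the TTF-derived arrays, at 6.18, 5.71, 4.61 and 4.62 on the MEF-derived arrays and at 5.58 and 5.53 in MEFs. These values lie around the dim end and overlap between all groups. No comparison of Lamb3 passed, and the 95% interval for both kinds of ieSC against MEFs ran from -1.23 to 0.96.

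Lamc1 stood at 14.27, 14.17, 14.57 and 14.65 on the TTF-derived arrays, at 14.19, 14.18, 14.80 and 14.83 on the MEF-derived arrays and at 14.40 and 14.32 in MEFs. The MEF arrays lay inside the range of both ieSC groups, and on every array Lamc1 was at the 94.5th percentile or higher. Its difference from MEFs was 0.05 (95% interval -0.48 to 0.59) in TTF-derived and 0.14 (-0.39 to 0.68) in MEF-derived ieSCs. Lamc3, another γ chain gene, stood at 5.82 ± 0.27 in TTF-derived ieSCs, 7.26 ± 0.14 in MEF-derived ieSCs (SD, n = 4 each) and 5.62 ± 0.06 in MEFs (n = 2), and rose by 1.63 ± 0.27 (SE) in MEF-derived ieSCs (limma adjusted p = 0.000715).

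**Figure D2:**
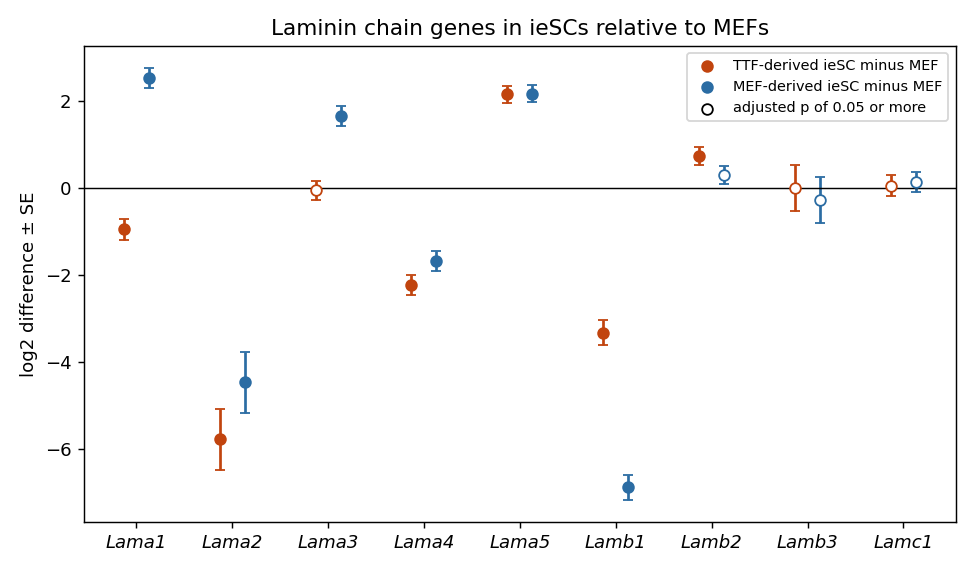
Log2 difference from MEFs (y axis, bars are SE) for the 9 laminin chain genes (x axis) in TTF-derived and MEF-derived ieSCs, both set against the same 2 MEF arrays. Filled points passed at an adjusted p under 0.05. Lama5 is at 2.15 and 2.17, while Lama1 is at -0.95 and 2.54 and Lamb1 at -3.32 and -6.88.

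Set against MEFs separately, 6 of the 9 genes passed in TTF-derived ieSCs, 2 higher (Lama5, Lamb2) and 4 lower (Lama1, Lama2, Lama4, Lamb1), where 45.1% of all genes were called (23.3% higher, 21.9% lower). In MEF-derived ieSCs, whose controls are the kind of cell they were made from, 6 passed, 3 higher (Lama1, Lama3, Lama5) and 3 lower (Lama2, Lama4, Lamb1), where 51.2% of all genes were called (27.2% higher, 24.0% lower). The shared MEF arrays enter both counts.

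The ieSC groups were then compared with each other, to ask how far the starting fibroblast went with the chain genes. In TTF-derived relative to MEF-derived ieSCs, 1 gene was higher and 3 were lower, and 36.0% of all genes were called (16.8% higher, 19.3% lower). Lamb1 was 3.56 ± 0.24 higher in TTF-derived ieSCs (fold change 11.8, adjusted p = 5.5e-06), and Lama1 was lower by -3.49 ± 0.19, which is 11.2-fold (adjusted p = 1.44e-06). Lama3 differed by -1.71 ± 0.18 (adjusted p = 0.000108), with no overlap of the arrays. Lama4 differed by -0.56 ± 0.19 (adjusted p = 0.043), and this call was lost in 13 of 24 alternatives (limma adjusted p from 0.000371 to 0.246). Its difference was -0.20 without name 2 of the MEF-derived ieSCs and -0.93 without their name 1. Lama2 (-1.31 ± 0.57), Lamb2 (0.45 ± 0.17), Lama5, Lamb3 and Lamc1 did not pass. The other Lama2 feature was lower in TTF-derived ieSCs too, and passed in the fit of single features (limma adjusted p = 0.025), but its values lie in the dim range. Whatever else separates tail tip from embryonic fibroblasts, such as the age of the tissue, goes with the origin and cannot be told apart from it.

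Within an origin, the names could be compared as values. The gap between the 2 arrays of a name had a median of 0.0755 over the 9 genes and 5 names and reached 1.07 for Lama2 in TTF-derived name 2. Lama1, Lama2, Lamb1 and Lamb3 were lower in name 2 than in name 1 in both origins, Lamb1 by -0.40 in TTF-derived and -0.84 in MEF-derived ieSCs and Lama2 by -1.49 and -1.06. Lamc1 and Lama5 were higher in name 2 in both origins, by 0.39 and 0.63 for Lamc1 and by 0.48 and 0.21 for Lama5. With 2 names in an origin these are values without a test.

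Read as trimers, the chains changed unequally. The level of Lamb1 minus that of Lamb2 on the same array, with the MEF mean set to 0, lay at -4.04, -3.89, -4.38 and -3.95 on the TTF-derived arrays and at -6.61, -6.48, -7.82 and -7.79 on the MEF-derived arrays. Lamb1 thus stood lower against Lamb2 than in MEFs on all 8 ieSC arrays, and the MEF-derived arrays lay below all TTF-derived ones. Lama1 minus Lama5 lay at -2.63, -2.78, -3.62 and -3.39 on the TTF-derived arrays and at 0.75, 0.74, 0.01 and -0.05 on the MEF-derived arrays. The balance of these α chain genes therefore differed from that of MEFs in TTF-derived ieSCs and stayed within 1 log2 unit of it in MEF-derived ieSCs, where both genes rose.

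**Figure D3:**
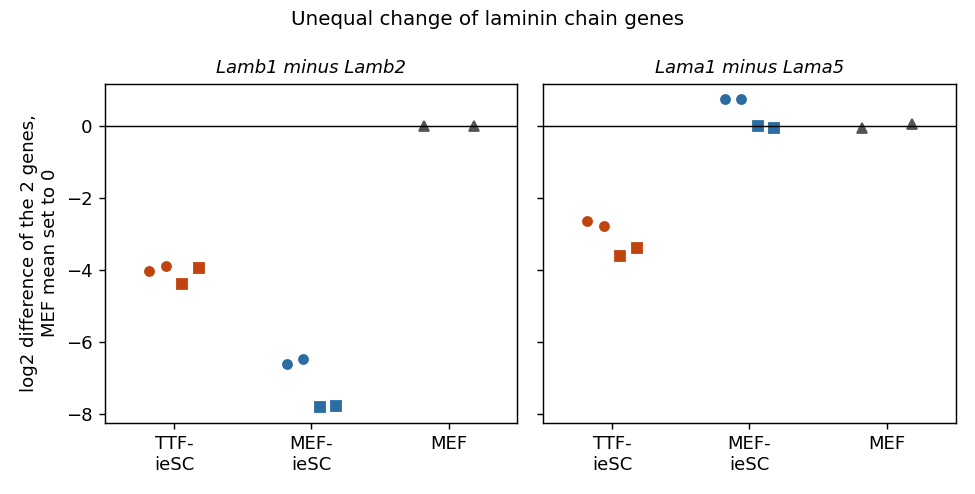
Log2 level of one chain gene minus another on the same array (y axis), relative to the MEF mean, in TTF-derived ieSCs, MEF-derived ieSCs and MEFs (x axis), with symbols as in the plot of levels. Lamb1 minus Lamb2 averages -4.06 in TTF-derived and -7.17 in MEF-derived ieSCs, and Lama1 minus Lama5 averages -3.10 and 0.37.

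The chains were read as 10 known trimers, each of an α chain gene with Lamb1 or Lamb2 and with Lamc1. In TTF-derived ieSCs 8 of the 10 had all their chain genes above the 40th percentile on every array, against 10 in MEFs, and the 2 that did not were those with Lama2. In MEF-derived ieSCs all 10 did, as in MEFs, but no ieSC array of either origin had Lama2 above the 60th percentile. These counts depend on the feature taken, as each chain was read from its brightest kept feature only. The other Lama2 feature exceeded the 40th percentile on 0 of 4 TTF-derived, 2 of 4 MEF-derived and 2 of 2 MEF arrays. The other Lama3 feature did so on 2 of 4 TTF-derived, 4 of 4 MEF-derived and 0 of 2 MEF arrays. For the trimer of Lama5, Lamb2 and Lamc1, no chain gene had a mean below that of MEFs in either ieSC group: Lama5 rose in both, Lamb2 rose in TTF-derived ieSCs, and the remaining values, 0.29 for Lamb2 and 0.05 and 0.14 for Lamc1, did not pass. With Lama1 or Lama3 in place of Lama5 this held in MEF-derived ieSCs, while in TTF-derived ieSCs the α chain genes stood at -0.95 (Lama1, past the threshold) and -0.05 (Lama3, not past it). The trimer of Lama1, Lamb1 and Lamc1 combines a chain gene that rose in MEF-derived ieSCs with one that fell there by 6.88 on the log2 scale. RNA levels of the chains do not measure secreted trimers.

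Genes whose products bind laminin rose in most cases. Over the mean of both kinds of ieSC, 7 of 9 receptor genes were higher than in MEFs and 1 was lower. The list median was 2.72 beside 0.085 over all genes, of which 25.9% were higher and 23.6% lower. In TTF-derived ieSCs 5 were higher and 2 lower, where 23.3% and 21.9% of all genes were. In MEF-derived ieSCs 7 were higher and 0 lower, where 27.2% and 24.0% of all genes were. Itga3 and Itga6, the α subunits of laminin-binding integrins, rose by 3.64 ± 0.13 and 3.21 ± 0.09 over both kinds of ieSC (adjusted p = 3.43e-08 and 8.62e-09). Itga7, another such subunit, known from muscle, rose by 4.13 ± 0.38 (adjusted p = 1.71e-05). Cd151, a tetraspanin that binds these integrins, rose by 2.72 ± 0.22 (adjusted p = 6.53e-06). Bcam, a receptor for laminins with the α5 chain, rose by 3.97 ± 0.17 (adjusted p = 1.09e-07). Itgb4, the partner of Itga6 in hemidesmosomes, fell by 1.14 ± 0.28 (adjusted p = 0.00753). Itgb1, the β subunit of most laminin-binding integrins, did not pass over both kinds (-0.44 ± 0.19, adjusted p = 0.0826), but stood at 13.27 in TTF-derived ieSCs, 14.89 in MEF-derived ieSCs and 14.52 in MEFs, and fell in TTF-derived ieSCs (-1.25 ± 0.21, adjusted p = 0.000876). Between the ieSC groups no receptor gene was higher and 4 of 9 were lower in TTF-derived ieSCs, where 19.3% of all genes were lower and 36.0% were called: Itgb1 by -1.63 ± 0.17, Sdc1 by -1.83 ± 0.28, Itga6 by -0.71 ± 0.08 and Itgb4 by -0.77 ± 0.25. Of the enzymes that put the laminin-binding sugar on dystroglycan, 7 of 10 genes were tested, 1 was higher and 5 were lower in ieSCs (median -0.49), beside 25.9% and 23.6% of all genes. Pomgnt2 fell by 1.98 ± 0.22 and B4gat1 rose by 0.93 ± 0.13 (adjusted p = 4.98e-05 and 0.000205).

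Of 20 genes for other basement membrane proteins, 8 were higher and 6 lower in ieSCs (median -0.09), beside 25.9% and 23.6% of all genes. Nid1, which links laminin to collagen IV, stood at 5.90 in TTF-derived ieSCs, 6.23 in MEF-derived ieSCs and 14.59 in MEFs, a difference of -8.52 ± 0.29 (adjusted p = 3.32e-08) on the feature taken and -8.52 to -4.07 over its 3 features. Frem1, a protein of the skin basement membrane, was lower in ieSCs (limma adjusted p = 1.04e-06), at 3.52 in TTF-derived ieSCs, 3.64 in MEF-derived ieSCs and 8.98 in MEFs. As 0 of 8 ieSC arrays exceeded the 40th percentile, the size of this fall is not given. The skin anchoring genes Col7a1 and Fras1 differed by -1.45 ± 0.19 and -2.45 ± 0.38. Among collagen IV genes, Col4a6 rose by 4.31 ± 0.14, Col4a4 by 3.69 ± 0.32 and Col4a5 by 2.17 ± 0.11. Over their features the rises ran from 2.53 to 4.31 for Col4a6 (2 features) and from 2.0 to 3.69 for Col4a4 (3 features). Col4a1 was lower, at -0.69 ± 0.20 (limma adjusted p = 0.0184). It fell in TTF-derived ieSCs (-1.58 ± 0.22) and did not pass in MEF-derived ieSCs (0.19 ± 0.22). Col4a2 did not pass over both kinds (-0.39 ± 0.15) but fell in TTF-derived ieSCs (-0.87 ± 0.16, limma adjusted p = 0.00187). Tinagl1, a basement membrane glycoprotein, rose by 3.35 ± 0.14. Perlecan (Hspg2) did not pass on the feature taken, at -0.09 ± 0.12, while its 2 features ran from -0.09 to 0.46. Between the ieSC groups 3 were higher and 4 lower in TTF-derived ieSCs, a share close to the 36.0% called over all genes. Col4a1 and Col4a2, which pair in the common collagen IV, were lower by -1.77 ± 0.18 and -0.97 ± 0.13, Tinagl1 was lower by -1.11 ± 0.12, and Col18a1 was higher by 2.55 ± 0.34.

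**Figure D4:**
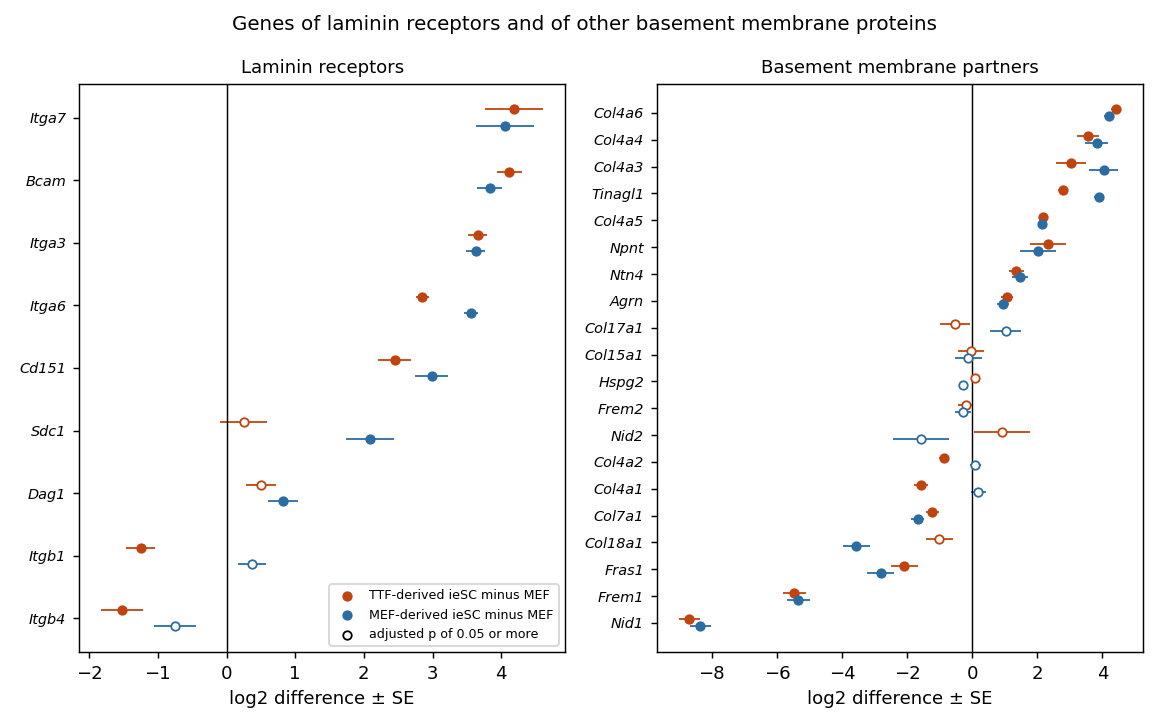
Log2 difference from MEFs (x axis, bars are SE) for the genes of laminin receptors and of other basement membrane proteins in TTF-derived and MEF-derived ieSCs. Filled points passed at an adjusted p under 0.05. Itga7 and Bcam lie near 4 in both, Nid1 near -8.5, and Itgb1 and Col4a1 lie below 0 in TTF-derived ieSCs only.

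Markers of other cells moved as well. Unless an origin is named, their counts are for both kinds of ieSC against MEFs, where 25.9% of all genes were higher and 23.6% lower. All 5 mesothelial markers were higher in ieSCs (median difference 4.53), among them Wt1, which is also a transgene. Taken by origin, 5 were higher in TTF-derived and 4 in MEF-derived ieSCs, where 23.3% and 27.2% of all genes were higher. Their mean level was 15.18 to 15.79 in TTF-derived ieSCs, 14.52 to 15.54 in MEF-derived ieSCs and 10.89 to 10.95 in MEFs. Msln, which defines mesothelium, stood at 18.04 in TTF-derived ieSCs, 18.30 in MEF-derived ieSCs and 13.36 in MEFs. Of 7 muscle markers, 5 were lower in ieSCs and 0 higher, and their mean level was 7.56 to 7.67 in TTF-derived ieSCs, 7.60 to 8.65 in MEF-derived ieSCs and 11.34 to 11.37 in MEFs. All 9 macrophage markers were lower, with mean levels of 6.04 to 6.14, 6.19 to 6.40 and 11.40 to 11.42 in the same order of groups. Of the 8 endothelial markers 5 were tested, 2 higher and 2 lower, with mean levels of 6.64 to 6.98, 6.29 to 6.47 and 6.12 to 6.14. Cdh5, Tie1 and Emcn, which define endothelium, stayed below the filter. The log2 differences of the 5 tested ran from -3.29 to 6.64, so the mean level of the list hides opposite changes. In TTF-derived ieSCs 2 were higher and 1 lower, where 23.3% and 21.9% of all genes were. In MEF-derived ieSCs 1 was higher and 2 lower, where 27.2% and 24.0% of all genes were. Of the 8 epithelial and keratinocyte markers 5 were tested, 2 were higher and 0 lower, with mean levels of 7.54 to 8.0, 7.48 to 8.18 and 6.89 to 6.92. Epcam, Cdh1 and Dsg3 stayed below the filter. The 5 tested differed by origin: 1 was higher in TTF-derived and 2 in MEF-derived ieSCs, where 23.3% and 27.2% of all genes were higher. In TTF-derived relative to MEF-derived ieSCs, 1 was higher by 3.15 and 1 lower by -5.13, where 16.8% and 19.3% of all genes were higher and lower. Of 4 germ cell markers 2 were tested and 0 passed, with mean levels of 4.75 to 5.01, 5.12 to 5.44 and 5.41 to 5.42. The part of these cells in the differences of Lama2, Lama3, Lama4 and Lama5 was not tested.

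The genes whose pattern over the 10 arrays was most like that of a laminin gene were ranked by the mean absolute difference of values centred on each gene's own mean. For Lamb1 these were Gria3 (0.233), Clec11a (0.237) and B4galnt1 (0.304). For Lama2 they were Lyz1 (0.283), Ms4a4d (0.359) and Lrrc32 (0.388), and for Lama5 Etfbkmt (0.0596), Wnt9a (0.0808) and Tmem117 (0.0937), all in log2 units.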

How the data were processed

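Total RNA of 10 cultured samples was labelled with Cy3, 1 sample per Agilent array. The deposited table holds log2 intensity for 62976 features, from 0.288 to 19.024. Of the upstream tools, limma is named (per the submitters' processing notes); the version and any background correction are not given in the sources used here. Once sorted, the deposited log2 columns are alike to within 0.0379 for values past the 40th percentile, as after quantile normalization, so a change in total mRNA per cell cannot be seen. There are no detection flags, and the number of arrays limits the precision (median SE 0.174 against MEF, 0.156 between both kinds of ieSC).

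Features were named from the platform annotation (31465 with 1 symbol, 0 with several, 31511 with none), updated through RefSeq GRCm38.p6, where the accessions of 29050 features matched. A feature had to exceed the 40th percentile on at least 2 arrays (42617 features did), and a gene was its kept feature with the highest mean (16650 genes). Group means were fitted to all 10 arrays with limma 3.58.1 in R 4.3.3, the name shared by 2 arrays being a random block (consensus correlation 0.606). Moderated tests were two-sided, with Benjamini-Hochberg adjustment over all genes and a threshold of 0.05. Each ieSC group and their mean were set against MEF, and the ieSC groups against each other. The fit was also run on simulated data with few changed genes, unlike these data, and no result given here rests on that run.

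The 9 genes, the lists of receptors, partners and markers and the tests were chosen with earlier results of these data known. Named were all 9 genes and Lamc3, up to 4 risen and 4 fallen genes per list by smallest p, up to 4 per list between the ieSC groups, and the 3 genes nearest in pattern to each of the 3 laminin genes with the largest differences. Itga7, Hspg2, Itgb1 where it did not pass, Cldn11, and Col4a1 and Col4a2 against MEFs were named after their values were seen. One gene of the lists is not reported here. Alternatives changed the filter, the feature taken, the treatment of names, the scaling, dim values and the variance model, and left out each array and each ieSC name.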

Additional observations from a re-analysis of the deposited data

Results flagged for a closer look

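The difference from MEFs of 4 laminin genes was unequal in the 2 kinds of ieSC, by the test of the ieSC groups against each other, in which the shared MEF arrays cancel. The value is the difference from MEFs in TTF-derived ieSCs minus that in MEF-derived ieSCs, on the log2 scale. It was -3.49 for Lama1, whose arrays lay below MEFs in TTF-derived and above MEFs in MEF-derived ieSCs, and 3.56 for Lamb1, which fell in both. It was -1.71 for Lama3 and -0.56 for Lama4.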

How the results depend on the processing

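Of 36 tested log2 differences (9 genes in 4 comparisons), 23 passed, all 23 kept their sign in the 23 or 24 alternatives run for each, and 17 kept their call in all of them. With the arrays of each name averaged, the count of genes past the threshold for ieSC against MEF was 4 in place of 7, with Lama1 (limma adjusted p = 0.107), Lama3 (0.0841) and Lamb2 (0.149) lost; this fit has fewer samples, and over their alternatives the adjusted p ran from 0.00228 to 0.107, 0.000918 to 0.0841 and 0.00879 to 0.149. The counts of laminin genes in the other comparisons stayed within 1.5 times of their main value. Without single libraries, Lamb2 between the ieSC groups passed when TTF-derived array 2b, TTF-derived name 2 or MEF-derived name 2 was left out (adjusted p = 0.0326, 0.0445 and 0.0191), Lama2 there without TTF-derived name 1 (0.0184), and Lamb2 in MEF-derived ieSCs against MEF without MEF-derived name 1 (0.0463). The rise of Lamb2 over both kinds of ieSC was lost without either MEF array (0.0923 and 0.0935) and in 8 of the 12 cases in which ieSC arrays or names were left out. Numbers 1 and 2 as a replicate block gave 6 genes in place of 4 between the ieSC groups, adding Lama2 (limma adjusted p = 0.0083; 0.0083 to 0.413 over its alternatives) and Lamb2 (0.0435; 0.0178 to 0.282), and 8339 of all genes in place of 5998. Over all genes, averaging called 5493 for ieSC against MEF in place of 8248, 4763 for TTF-derived ieSCs against MEF in place of 7512, and 2421 between the ieSC groups in place of 5998. Same-numbered names deviated together with a correlation of 0.297 over genes, but with 2 numbers and no label on what they share, they were not taken as pairs. Among the 13 values that did not pass, 10 changed sign when arrays or names were left out. Their ranges were -0.467 to 0.198, -0.343 to 0.358, -0.941 to 0.388 and -0.38 to 0.949 for Lamb3 (both ieSCs, TTF-derived and MEF-derived against MEF, and TTF-derived against MEF-derived), and in the same order -0.06 to 0.255, -0.141 to 0.249, -0.174 to 0.455 and -0.402 to 0.228 for Lamc1. They were -0.17 to 0.066 for Lama3 in TTF-derived ieSCs against MEF and -0.259 to 0.219 for Lama5 between the ieSC groups. The cause was not tested. The filter at the 60th percentile left no value for Lamb3. Values near the dim end (Lama2 in ieSCs, Lamb3, the second Lama3 feature, Frem1 in ieSCs) are limited by the lack of detection flags.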
